A study of Homo sapiens with 4 samples.

Results

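The genes described are 10 chemokines of the CC and CXC families, CCL20, CCL5, CCL2, CXCL1, CXCL2, CXCL3, CXCL8, CXCL10, CXCL11 and CXCL16, out of 20044 genes with a probe. They were chosen by family and from the treated against control ratios of these same arrays, so every ratio below is a description and carries no test. The genes have 14 probes, and 4 of them (CCL5, CXCL8, CXCL11 and CXCL16) have more than 1.

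Chemokines are small secreted proteins that draw leukocytes towards a tissue by binding receptors on the cell surface. The families are named after the spacing of the first cysteines, CC or CXC. CXCL1, CXCL2, CXCL3 and CXCL8 carry the motif Glu-Leu-Arg and attract neutrophils. CXCL10 and CXCL11 are induced by interferon and attract activated T cells. In the intestine the epithelium itself releases several of them, and NF-kB, a family of transcription factors activated by inflammatory signals, is a well known inducer of many chemokine genes.

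RNA came from cultures labelled HT-29, an established epithelial line from a human colorectal adenocarcinoma, measured on 4 Illumina bead arrays that lie on 2 chips. Chip 1 held cells given 20 µM cyclopamine for 48 h, an alkaloid that blocks the Hedgehog component Smoothened, and a control culture. The source name of that control gives tomatidine, a related alkaloid, while its title and treatment field give the solvent DMSO, so it is called the chip 1 control. Chip 2 held cells given 20 µM GANT61 for 48 h, known for blocking GLI, the transcription factors at the end of that pathway, and a control labelled DMSO throughout, called the chip 2 control. Each group had 1 array, so no difference has a replicate check, and fewer producing cells and less RNA per cell cannot be told apart in such bulk samples.

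The arrays of chip 1 went against their label. Of 14 epithelial and colonocyte markers, 2 (KRT8 and KRT18) were above background on each array of chip 1, against 10 on each array of chip 2. Their summed intensity was 2672 with cyclopamine against 2711 in its control, and 28665 with GANT61 against 34790 in its control. EPCAM, the epithelial adhesion molecule, had a deposited intensity of 80.2 with cyclopamine and 81.0 in the chip 1 control, against 6717 with GANT61 and 8032 in the chip 2 control. VIM, a filament protein of mesenchymal cells, had 3112 and 3710 on chip 1 against 138 and 139 on chip 2, in the same order. Of 9 mesenchymal markers, 3 (VIM, CDH2 and COL1A1) were above background on each array of chip 1, and 1 (VIM) on each array of chip 2. COL1A2, COL3A1, FN1, SPARC, PDGFRB and THY1 did not exceed background on any array, so most of that list was not detected on chip 1 either. Each compound is therefore set against the control of its own chip only. Of 10 leukocyte markers, 1 was above background with cyclopamine, 1 in the chip 1 control, 4 with GANT61 and 3 in the chip 2 control. PTPRC and CD3E, which define leukocytes and T cells, did not exceed background on any array, and neither did any of 5 endothelial markers. On chip 2 those above background were CD14, CD68, CD79A and ITGAM with GANT61, and CD14, CD68 and MS4A1 in its control. CD14 had 370 with GANT61 against 359 in its control, and CD68 had 350 against 367, each at its brightest probe. The summed intensity of the leukocyte list was 1669 with cyclopamine against 1121 in its control, and 1348 with GANT61 against 1314 in its control. On chip 1 the list holds CD68 alone above background. Its brightest probe read 855 with cyclopamine against 314 in its control, while its other probes read 353 against 402 and 114 against 123, and its part in the chemokine values was not tested.

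With either compound CCL20 and CXCL8 were higher than in the control of the same chip, CCL5 was higher with cyclopamine but not with GANT61, and CCL2, CXCL3 and CXCL16 lay within 1.5-fold wherever a treated array could be compared. A probe counts as above background at a detection p under 0.01, and a gene is compared if the probe with its highest mean level passes that threshold on 1 or both of the arrays. Of the 10 genes, 7 were above background with cyclopamine and 3 in the chip 1 control, and likewise 7 with GANT61 and 3 in the chip 2 control. Only CXCL11 did not exceed background on any array.

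**Figure D1:**
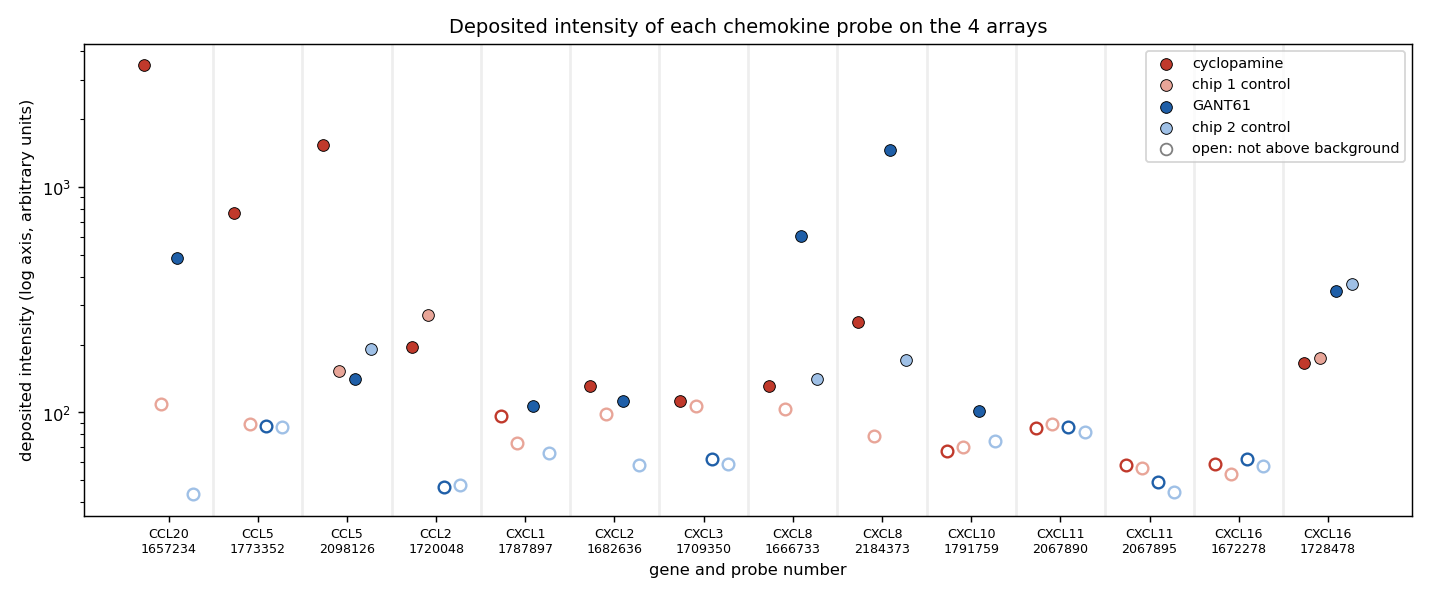
Deposited intensity (log axis) of each of the 14 chemokine probes on the 4 arrays, with filled points above background and open points not. CCL20 reaches 3466 with cyclopamine and 486 with GANT61, CCL5 is raised on the cyclopamine array alone, and CXCL8 reaches 1461 with GANT61.

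With cyclopamine 7 genes could be compared, and 4 of them (CCL20, CCL5, CXCL2 and CXCL8) had a log2 ratio of 2-fold or more above the control, with 0 below it by as much. Over all 8999 genes compared the shares were 3.10% higher and 1.91% lower. With GANT61 7 genes could be compared, with 3 (CCL20, CXCL2 and CXCL8) higher and 0 lower by that measure, and over all 10439 genes the shares were 3.50% and 2.03%. Because these ratios were among the values that chose the genes, nothing is read from the gap to the background. Of the 7 genes compared with cyclopamine, 4 (CCL20, CXCL2, CXCL3 and CXCL8) were above background on the treated array alone. The same held for 4 of the 7 with GANT61 (CCL20, CXCL1, CXCL2 and CXCL10), and such genes could hardly show a ratio below 1. Over all 10 genes, with no filter, the median log2 ratio was 0.38 with cyclopamine and 0.31 with GANT61, and over all genes compared it was -0.01 in both.

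Log2 ratios are treated minus control on intensities that were background corrected and quantile normalised with an offset of 16, which compresses the ratios of dim probes. Different probes of a gene, each above background on both arrays, gave ratios with an SD per probe of 0.23 for cyclopamine (1823 genes) and 0.26 for GANT61 (2343 genes). That spread is between probes on the same arrays and covers neither culture nor labelling, nor probes below background. Where 1 array was below background, the fold is a lower bound taken against the dimmest detected level of that array, or the probe's own level if higher. Every such bound holds on this background-corrected, normalised scale alone. The ratio of deposited intensities still has the background in both arrays, can lie below the bound, and is given beside it where it does.

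**Figure D2:**
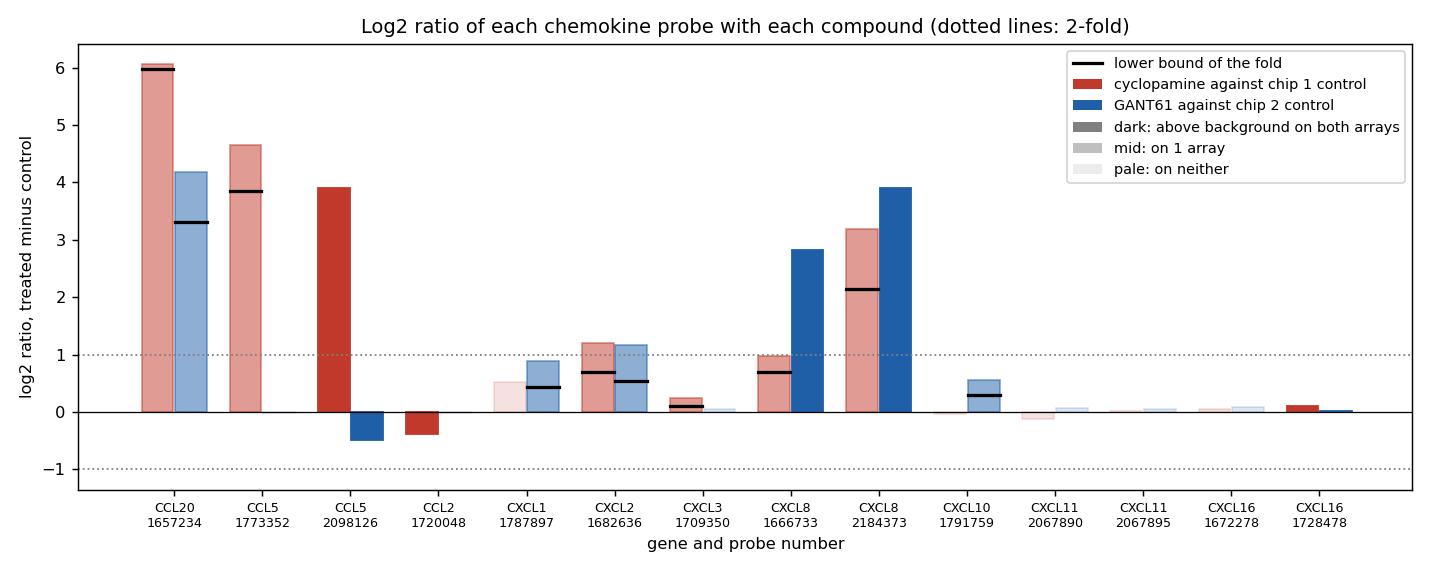
Log2 ratio of each chemokine probe, cyclopamine against the chip 1 control and GANT61 against the chip 2 control, shaded by whether the probe was above background on both, 1 or neither array; black lines are lower bounds. CCL20 stands at 6.06 and 4.19, CCL5 (probe ILMN_2098126) at 3.91 and -0.48, and CXCL8 (probe ILMN_2184373) at 3.18 and 3.90.

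CCL20, which acts through the receptor CCR6 on dendritic cells and lymphocytes and is made by intestinal epithelium over lymphoid follicles, was higher with each compound than in a control that did not exceed background. Its probe ILMN_1657234 had a deposited intensity of 3466 with cyclopamine, against 109 in the chip 1 control. It had 486 with GANT61, against 43.4 in the chip 2 control. It was above background on both treated arrays and on neither control array, although the chip 1 control lay just outside the threshold with a detection p of 0.013. On the normalised scale the fold was at least 63.1 with cyclopamine and at least 9.91 with GANT61, while the deposited intensities stood in ratios of 31.8 and 11.2. Across the settings tried its log2 ratio ran from 4.99 to 6.35 with cyclopamine and from 2.98 to 4.39 with GANT61. The normalised log2 levels were 11.82 and 5.76 on chip 1 and 8.69 and 4.49 on chip 2, treated array first.

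CCL5, a chemokine for T cells, monocytes and eosinophils, was higher with cyclopamine at both of its probes. Probe ILMN_2098126 had 1532 with cyclopamine against 153 in its control, and 141 with GANT61 against 192 in its control. Probe ILMN_1773352 had 764 with cyclopamine against 89.1 in its control, and 87.1 with GANT61 against 86.3 in its control. The cyclopamine array thus stood alone, with the other 3 arrays between 141 and 192 at the brighter probe and between 86.3 and 89.1 at the dimmer one. At the brighter probe, which was above background on all 4 arrays, the log2 ratio was 3.91 with cyclopamine and -0.48 with GANT61. At the dimmer probe the fold with cyclopamine was at least 14.4 on the normalised scale, with a deposited ratio of 8.57, and neither array of chip 2 was above background. Among 8007 genes above background on both arrays of chip 1, CCL5 ranked 1 from the top by log2 ratio. Among 9370 such genes on chip 2 it ranked 1169 from the bottom.

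CCL2, which attracts monocytes and is a typical product of mesenchymal cells, was above background on chip 1 alone. Its single probe had 195 with cyclopamine, against 270 in the chip 1 control, a log2 ratio of -0.38. On chip 2 it had 46.5 with GANT61 and 47.8 in the DMSO control, both below background. The chip 1 control was at least 5.58-fold above the chip 2 control, in the same direction as VIM. Chip, culture and control solvent cannot be told apart in that difference.

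CXCL8, or interleukin 8, a neutrophil chemokine made by human epithelium, was higher with each compound at each of its probes. Probe ILMN_2184373 had 253 with cyclopamine against 78.3 in its control, and 1461 with GANT61 against 171 in its control. Probe ILMN_1666733 had 131 with cyclopamine against 104 in its control, and 607 with GANT61 against 141 in its control. The GANT61 array was the highest and the chip 1 control the lowest at both probes. With GANT61 both probes were above background on both arrays, with log2 ratios of 3.90 and 2.82, and CXCL8 ranked 5 from the top among the 9370 genes above background on both arrays of chip 2. With cyclopamine both probes were above background on the treated array alone, and the folds were at least 4.41 and at least 1.62 on the normalised scale, with deposited ratios of 3.23 and 1.26. Across the settings tried the log2 ratio of CXCL8 with cyclopamine ran from 1.69 to 3.18. The ratios of the probes lay further apart than the SD per probe of 0.26.

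**Figure D3:**
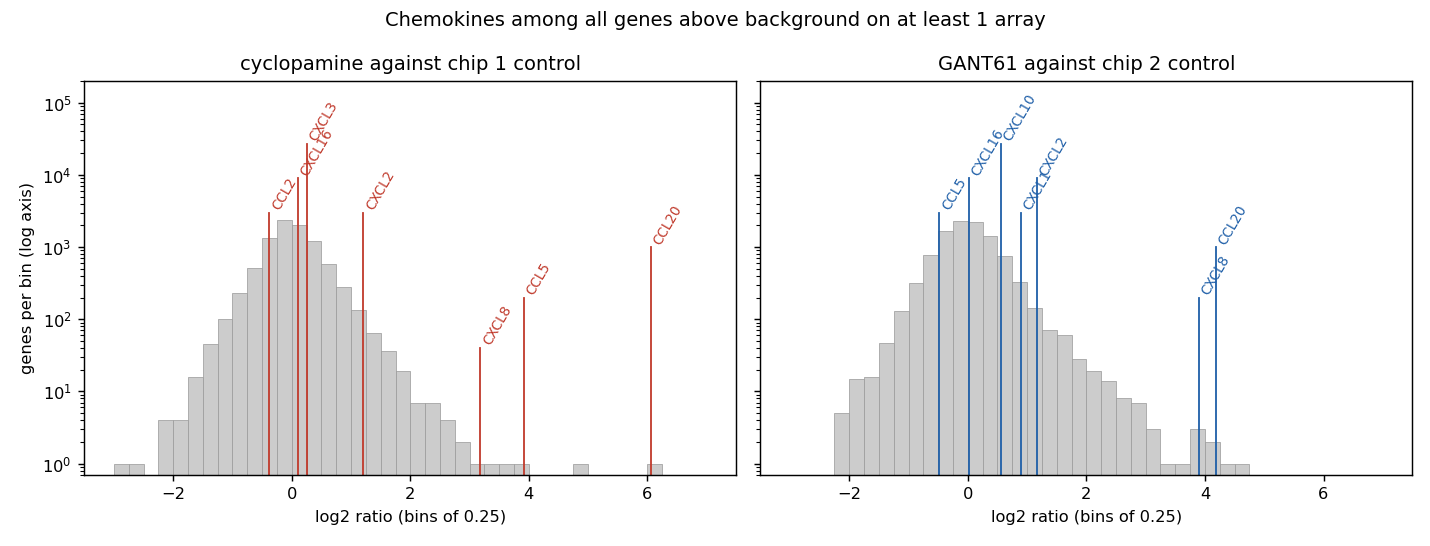
Number of genes (log axis) per bin of log2 ratio among genes above background on at least 1 array, cyclopamine on the left and GANT61 on the right, with vertical lines at the chemokines compared. CCL20, CCL5 and CXCL8 lie in the far right tail with cyclopamine, CCL20 and CXCL8 with GANT61, and the others lie within the body of the distribution or on its right shoulder.

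CXCL1, CXCL2 and CXCL3, neutrophil chemokines of nearly identical sequence, were dim on every array. A probe of 1 could bind RNA of another, so their symbols are less certain than the rest. CXCL2 had 131 with cyclopamine against 98.6 in its control, and 113 with GANT61 against 58.7 in its control. It was above background on the treated arrays alone, at least 1.63-fold higher with cyclopamine and at least 1.46-fold with GANT61 on the normalised scale, with deposited ratios of 1.33 and 1.92. CXCL1 had 96.3 with cyclopamine, against 73.1 in the chip 1 control, neither above background, and 107 with GANT61, against 66.4 in the chip 2 control, at least 1.35-fold higher. CXCL3 had 112 with cyclopamine against 107 in its control, and 62.1 with GANT61 against 58.8 in its control. It passed the threshold on the cyclopamine array alone, with detection p of 0.00909 against 0.0182 in the control. Its log2 ratio of 0.25 was near the SD per probe of 0.23, which comes from probes above background on both arrays. The log2 ratios behind the 2-fold counts, 1.21 and 1.17 for CXCL2, rest on control levels below background, and with cyclopamine CXCL2 fell short of 2-fold under every other normalisation tried, with log2 ratios from 0.41 in the deposited log2 table to 0.88 with normalisation within each chip. With GANT61 it fell short under 3 of them, with 0.76 without background correction, 0.64 at an offset of 50 and 0.94 in the deposited log2 table.

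CXCL10 and CXCL11, ligands of CXCR3, a receptor on T cells, stayed near background. CXCL10 had 67.4 with cyclopamine against 70.5 in its control, and 101 with GANT61 against 74.8 in its control. The GANT61 array was the only 1 of the 4 above background, and the fold there was at least 1.23. CXCL11 had 85.6 with cyclopamine against 89.3 in its control, and 86.5 with GANT61 against 81.7 in its control at its brighter probe. No change in CXCL11 was detectable with either compound.

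CXCL16, a chemokine anchored in the membrane that also binds oxidised lipoprotein, differed little within each chip. Its probe ILMN_1728478 had 165 with cyclopamine against 175 in its control, and 347 with GANT61 against 370 in its control. The log2 ratios were 0.10 and 0.02, smaller than the SD per probe, and their sign changed between settings, over a range from -0.13 to 0.10 with cyclopamine and from -0.16 to 0.05 with GANT61. Its other probe was above background on no array.

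The compounds were used at the same dose and time but on different chips, whose cultures differed in epithelial markers and VIM. A difference between compounds therefore cannot be told apart from one between cultures. Their ratios are given side by side with no test of the difference. Of the 10 genes, CCL5 differed most, with 3.91 with cyclopamine and -0.48 with GANT61 at its brighter probe. CCL20 had 6.06 with cyclopamine and 4.19 with GANT61, and CXCL2 had 1.21 and 1.17. CXCL8 had 3.18 and 3.90 at probe ILMN_2184373 but 0.98 and 2.82 at probe ILMN_1666733, so how alike the compounds look depends on the probe. Between the controls, chip 1 against chip 2, 4 of the genes could be compared. CCL2 was at least 2-fold higher on chip 1, and CXCL8 and CXCL16 were at least 2-fold lower by log2 ratio, against 19.1% and 23.3% of all 10905 genes compared. CXCL8 was below background in the chip 1 control, so its difference is only a bound of at least 1.72-fold at probe ILMN_2184373. At probe ILMN_1666733 the bound was at least 1.34-fold, with a log2 difference of -0.70. CXCL16 had a log2 difference of -1.03. CCL5 had -0.10.

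The promoters of CCL20, CXCL8 and CXCL10 and of the close relatives CXCL1, CXCL2 and CXCL3 are shown because letters of the NF-kB binding motif lie in each. They come from RefSeq (GRCh38.p14), which gave 250 bases before and 50 after the start for 7 of the 10 genes. Each line holds the bases just before the annotated start, 150 of them, or 240 for CXCL10, read 5′ to 3′ on the gene's strand. Capitals mark matches on either strand to GGNNNTTCC, a short form of the NF-kB motif, to TGANTCA, the AP-1 motif, or to the core of the interferon-stimulated response element, GAAA followed after any 2 bases by GAAA. Matches of different motifs did not overlap in these promoters.
CCL20 (chr2:227813692-227813841, plus strand): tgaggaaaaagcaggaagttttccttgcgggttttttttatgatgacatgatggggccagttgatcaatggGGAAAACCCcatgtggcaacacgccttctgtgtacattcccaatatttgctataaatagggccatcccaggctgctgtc
CXCL8 (chr4:73740419-73740568, plus strand): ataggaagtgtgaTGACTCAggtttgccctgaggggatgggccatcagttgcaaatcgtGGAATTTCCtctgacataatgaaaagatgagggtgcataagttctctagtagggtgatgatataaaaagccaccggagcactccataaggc
CXCL1 (chr4:73869243-73869392, plus strand): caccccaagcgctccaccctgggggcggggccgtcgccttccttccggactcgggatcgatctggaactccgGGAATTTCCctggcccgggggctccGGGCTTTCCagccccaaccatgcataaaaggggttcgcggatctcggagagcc
CXCL2 (chr4:74099196-74099345, minus strand): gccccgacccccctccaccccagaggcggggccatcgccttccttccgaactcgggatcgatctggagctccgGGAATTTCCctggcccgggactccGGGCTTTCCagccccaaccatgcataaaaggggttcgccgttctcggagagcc
CXCL3 (chr4:74038690-74038839, minus strand): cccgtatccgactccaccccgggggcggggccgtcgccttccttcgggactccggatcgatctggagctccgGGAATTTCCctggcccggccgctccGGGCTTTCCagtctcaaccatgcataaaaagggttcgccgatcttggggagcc
CXCL10 (chr4:76023498-76023737, minus strand): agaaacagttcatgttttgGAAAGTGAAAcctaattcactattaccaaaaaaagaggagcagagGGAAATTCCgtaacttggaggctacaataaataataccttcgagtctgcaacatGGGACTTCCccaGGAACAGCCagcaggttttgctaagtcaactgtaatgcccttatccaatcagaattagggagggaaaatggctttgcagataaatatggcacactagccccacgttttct

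In CCL20 the match begins 79 bases before the start and reads GGAAAACCC, which fits the motif on the opposite strand. CXCL8 has GGAATTTCC 91 bases and TGACTCA 137 bases before its start. CXCL1, CXCL2 and CXCL3 share GGAATTTCC, 77 or 78 bases before the start, and GGGCTTTCC at 53 bases. Aligned end to end, the shown bases of CXCL1 were 88.7% identical to those of CXCL2 and 88.1% to those of CXCL3, against 45.1% to those of CXCL8. CXCL10 has GAAAGTGAAA at 221 bases and 3 matches to the NF-kB motif, and CXCL11, not shown, has GGAAATTCC at 75 bases and TGACTCA at 87 bases. Of the 7 promoters, 7 held the NF-kB motif, against 20.1% of all 35116 promoters in the table. The AP-1 motif was in 2 of 7, against 7.71%, and the interferon motif in 1 of 7, against 3.57%. The promoters with the NF-kB motif include those of CXCL11, which did not exceed background on any array, and CXCL3, which did so with cyclopamine alone. Whether the motif has a part in the ratios was not tested. A match describes letters only.

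Several genes of the NF-kB system, inhibitors and subunits of the alternative pathway among them, were higher with both compounds. The list holds 19 subunits, kinases and feedback inhibitors with a probe. With cyclopamine 15 could be compared, 5 of them 2-fold or more above the control and 0 as far below, and their median log2 ratio was 0.76. With GANT61 16 could be compared, 5 above and 0 below, and the median was 0.74. Over all genes compared 3.10% were as far above with cyclopamine and 3.50% with GANT61, and the median was -0.01 with each compound. Of the 5 with cyclopamine, TNFAIP3, NFKBIE and RELB were above background on the treated array alone, so they could hardly show a ratio below 1. With GANT61 the 5 (RELB, NFKBIA, NFKBIE, NFKB2 and NFKBIB) were above background on both arrays. NFKBIA, the inhibitor IkB-alpha and itself an NF-kB target, had 3687 with cyclopamine against 1855 in its control, and 1578 with GANT61 against 619 in its control, log2 ratios of 1.25 and 1.68. NFKBIE, a related inhibitor, was at least 2.55-fold higher with cyclopamine on the normalised scale (deposited ratio 1.90) and had a log2 ratio of 1.52 with GANT61. RELB, a subunit of the alternative pathway, was at least 1.95-fold higher with cyclopamine on that scale (deposited ratio 1.61) and had 1.86 with GANT61. TNFAIP3, the feedback inhibitor A20, had 190 with cyclopamine, against 82.3 in the chip 1 control, a deposited ratio of 2.30 and at least 3.01-fold on the normalised scale, but 66.3 with GANT61 and 59.7 in the chip 2 control, both below background. TNIP1, a partner of A20, had log2 ratios of 1.47 and 0.85, and NFKB2, the precursor of p52, 0.96 and 1.48, cyclopamine first. RELA, the subunit p65, had 0.04 and -0.03. The list was drawn up with earlier results of these arrays known, so nothing is read from the gap to all genes.

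**Figure D4:**
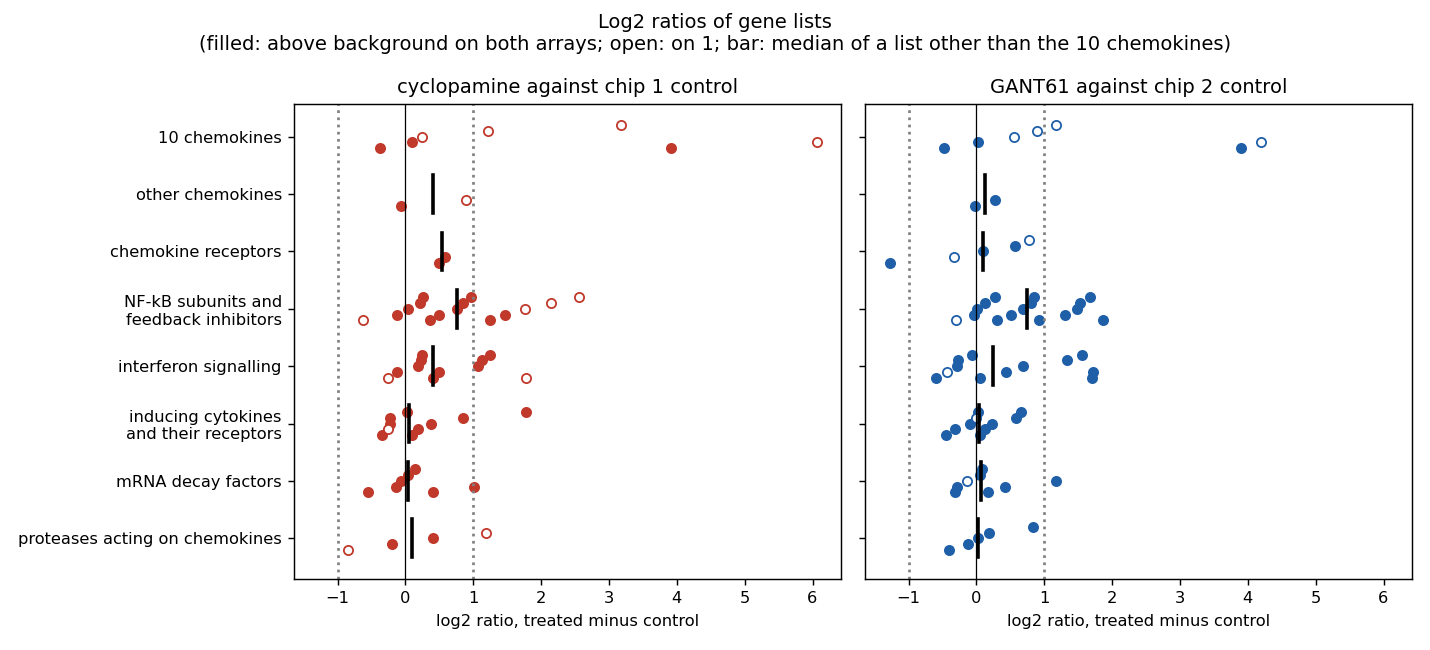
Log2 ratio of each gene compared, by list, with cyclopamine on the left and GANT61 on the right; filled points are above background on both arrays, open points on 1, and bars are medians of the lists other than the 10 chemokines. The NF-kB list has medians of 0.76 and 0.74, while the cytokine, decay factor and protease lists lie near 0 with both compounds. The medians are 0.40 and 0.24 for interferon signalling, 0.54 (2 genes) and 0.09 (5 genes) for receptors, and 0.41 and 0.13 for other chemokines (2 genes each).

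Some genes of interferon signalling were higher with each compound, while CXCL10 and CXCL11 stayed near background. Of 14 such genes 11 could be compared with cyclopamine, 4 of them 2-fold or more above the control and 0 as far below, and their median log2 ratio was 0.40. With GANT61 12 could be compared, 4 above and 0 below, and the median was 0.24. Over all genes compared the shares above were 3.10% with cyclopamine and 3.50% with GANT61, and the medians were -0.01. With cyclopamine IFIH1 was above background on the treated array alone. This list too was chosen with earlier results known, so nothing is read from the gap to all genes. IRF7, an interferon regulatory factor, had 353 with cyclopamine against 214 in its control, and 2026 with GANT61 against 786 in its control, log2 ratios of 1.07 and 1.70, and a dimmer probe had 0.69 and 1.16. IRF1, a factor known to act at the CXCL10 promoter, had 0.50 and 1.72. IFIH1, the RNA sensor MDA5, was at least 2.24-fold higher with cyclopamine on the normalised scale (deposited ratio 1.62) and had 1.56 with GANT61.

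Of 26 cytokines and receptors known to induce chemokines, 12 were above background on any array. The ligand genes TNF, IL1A, IL1B, IFNB1 and IFNG were on none, so no change in them was detectable. Of 10 genes compared with cyclopamine, 1 was 2-fold or more above the control and 0 as far below. That was IL6, an inflammatory cytokine, with 479 with cyclopamine against 191 in the chip 1 control, a log2 ratio of 1.78. It was below background on chip 2, with 63.0 with GANT61 and 73.3 in the DMSO control. LTA, a further ligand gene, was above background on both arrays of chip 1 and neither of chip 2. It had 117 with cyclopamine against 114 in its control, a log2 ratio of 0.19. IL18, another ligand gene, was above background on every array. It had 7592 with cyclopamine against 4947 in its control, and 5039 with GANT61 against 5868 in its control, log2 ratios of 0.85 and 0.03. Of 10 compared with GANT61, 0 were at least 2-fold apart, and the medians were 0.05 with each compound. Over all genes compared the shares were 3.10% higher and 1.91% lower with cyclopamine, and 3.50% and 2.03% with GANT61. Nothing is read from the counts in this list.

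The rest of the chemokine family lay mostly at background. Of 34 further chemokine genes on the arrays, 3 exceeded background on some array: PPBP, a platelet chemokine, CCL14 and CXCL12, the ligand of CXCR4. PPBP had log2 ratios of -0.07 and 0.27, cyclopamine first. CXCL12 was at least 1.10-fold higher with cyclopamine and above background there alone, at 1 of its 3 probes, and CCL14 had -0.02 with GANT61. Of 21 receptors with a probe, 5 were above background on any array. CXCR4 had 763 with cyclopamine against 655 in its control, and 95.4 with GANT61 against 190 in its control, log2 ratios of 0.49 and -1.27. Its other probes were below background on both arrays of chip 2. CXCR1, CXCR2 and CXCR3, the receptors of CXCL8 and of CXCL10, did not exceed background on any array.

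The genes with levels most like those of CCL20 were found by the distance between normalised log2 levels over the 4 arrays, each centred on its own mean, among the 11262 genes that exceeded background somewhere. The nearest was SERPINE2, a protease inhibitor, at a distance of 2.86, followed by TMEM158 (3.23), LAMP3 (3.54), SAA1 (3.57) and HERC5 (3.64). SERPINE2 had log2 ratios of 2.46 with cyclopamine and 2.74 with GANT61. SAA1, an acute phase protein, had 3.27 and 0.03, and HERC5, an interferon-induced ligase, 2.67 and 0.39. For CXCL8 the nearest was GDF15, a stress cytokine, at 1.51, with 2.29 and 2.27. It was followed by ABCG1 (1.96), IFIH1 (1.98), OAS1 (1.99) and DDX60 (2.10), of which the last 3 are interferon-stimulated genes. Over 4 arrays such likeness is a description only.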

How the data were processed

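The deposited intensity tables give, per the file headers, a bead intensity and a detection p-value for each probe and array, and the deposited series table gives log2 values, which equalled the log2 of the intensities within 5e-09. The software that summarised the beads is not given in the sources used here, and neither is a genome build. The 47227 probes on both chips were background corrected from the detection p-values, given an offset of 16 and quantile normalised over 4 arrays with the function neqc (limma 3.58.1, R 4.3.3), which was tested on simulated data. Symbols came from the platform annotation, updated through Entrez identifiers: 30111 probes had 1 symbol, 8 several and 17108 none. A gene is represented by its probe with the highest mean level. Of all probes, 28.5% to 36.1% were above background per array. The number of arrays limits the precision, and no p-value is given for a gene. All 10 chemokines are named, and from each other list up to 6 genes with the largest ratios, with list genes of defining role. Members and lists were chosen with earlier results of these data known.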

Additional observations from a re-analysis of the deposited data

How the results depend on the processing

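With each compound the counts of chemokines at least 2-fold lower were 0 under every setting tried. The 4 higher with cyclopamine and the 3 higher with GANT61 became 1 each when both arrays had to be above background. Under each of the 5 other normalisations the count with cyclopamine was 3. With GANT61 it was 2 under 3 of them and 4 under the other two. The median log2 ratio of the genes compared, 1.21 with cyclopamine, was 0.88 with normalisation within each chip, 0.68 without background correction, 0.79 with median scaling, 0.78 with an offset of 50, 0.41 in the deposited log2 table, 0.10 with detection on both arrays and 0.38 with no filter. With GANT61, 0.89 became 0.53 without background correction, 0.49 with an offset of 50, 0.02 with detection on both arrays and 0.31 with no filter. The last 2 settings compare fewer or more genes. For the others the cause was not tested. Between the controls the median of -0.56 was -1.23 with median scaling. The 1 higher gene became 2 at a detection p under 0.05 and with no filter, and 0 with detection on both arrays. The 2 lower genes became 1 without background correction, with an offset of 50, with detection on both arrays and with probes averaged. CCL20 ranged from 4.99 to 6.35 with cyclopamine and from 2.98 to 4.39 with GANT61, CCL5 from 3.32 to 4.28 with cyclopamine, and CXCL8 from 1.69 to 3.18 and from 3.09 to 3.90. Over all genes, 279 higher and 172 lower with cyclopamine ranged from 61 to 293 and from 31 to 235, and 365 and 212 with GANT61 from 183 to 372 and from 89 to 416. Of the genes at least 2-fold apart with cyclopamine, 61.9% were higher, against 34.7% with median scaling, 44.5% in the log2 table, 78.2% when background was not corrected, 75.8% at an offset of 50 and 76.0% with detection on both arrays. With GANT61 63.3% were higher, against 37.2% with median scaling, and between the controls 45.0% against 27.5%, where the 2546 lower genes became 1295 with detection on both arrays. The median of all genes was -0.25 and -0.20 with median scaling and -0.19 and -0.11 in the log2 table, cyclopamine first. Of the 14 chemokine probes 3 were above background on no array, and no change was read from them alone. Of these, the brighter CXCL11 probe enters the settings with no filter and, on chip 2, at a detection p under 0.05. The dimmer CXCL16 probe enters the averages over probes. No paired analysis was possible because each group had 1 array, which also left no array to leave out.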

Other observations

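Chemokine messages are short-lived, and proteins that act on message decay were measured as well. Of 9 such factors with a probe, 7 could be compared with cyclopamine and 8 with GANT61, and 1 was at least 2-fold higher with each, ZFP36, or tristetraprolin, which is itself induced by inflammatory signals. It had 1133 with cyclopamine against 688 in its control, and 2110 with GANT61 against 1141 in its control, log2 ratios of 1.01 and 1.17. ZC3H12A, the nuclease regnase-1, had 0.14 and 0.17. Over all genes compared 3.10% were at least 2-fold higher with cyclopamine and 3.50% with GANT61, and nothing is read from the count of decay factors.

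Among proteases that act on chemokines, ADAM10, which sheds CXCL16, had 109 with cyclopamine against 145 in its control, and 464 with GANT61 against 452 in its control. It was at least 1.62-fold lower with cyclopamine on the normalised scale, where the deposited ratio was 0.751, and had a log2 ratio of 0.18 with GANT61, where its dimmer probe had -0.13. DPP4, which trims CXCL10 and CXCL11, was at least 1.19-fold higher with cyclopamine and had -0.12 with GANT61.

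The probes of CCR6, the receptor of CCL20, disagreed. ILMN_2387696 had 13062 with cyclopamine against 10255 in its control, and 14661 with GANT61 against 16114 in its control. The other 2 probes were above background on no array, with intensities from 62.0 to 85.4, so the level of CCR6 is uncertain.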
